A study of Homo sapiens with 12 samples.

Results

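Human brain endothelial cells exposed to SiNPs of 58 nm were compared with the same cells exposed to SiNPs of 35 nm, which asks whether particle size alters the transcriptional response. SiNPs are taken here to be silica nanoparticles. The cells were hCMEC/D3, an immortalised human line derived from brain microvessels and used to study the blood-brain barrier in culture. The comparison uses 8 of the 12 libraries of the series: 4 from cells given 58 nm particles and 4 from cells given 35 nm particles, each at 100 µg/mL for 24 h. The other 4 libraries, from untreated cells, are given as the background level and enter only an alternative fit. Of the 58735 genes in the deposited table, 12137 reached an average of 1 FPKM or more across these 8 columns and were tested. FPKM is the number of fragments per kilobase of a gene scaled for the size of the library. Values per library are given in the order of libraries 1 to 4.

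The dose was equal by mass. At equal mass, smaller particles are more numerous and expose more surface, so effects of size, number and surface cannot be told apart in this design. In bulk RNA, a change in every cell and a change in the share of cells in 1 state cannot be told apart either. The labels do not state that libraries of 1 group are from different cultures. All p-values therefore measure the spread among these libraries only, and that spread may be technical. The labels also do not say whether untreated cells received a vehicle.

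Endothelial cells answer inflammatory signals through NF-kB, a family of transcription factors that IkB proteins hold in the cytoplasm until the signal arrives. Its targets include chemokines, cytokines, the adhesion molecules that arrest leukocytes on the vessel wall, and the inhibitors that end the response. Interferons act through a separate route, STAT and IRF factors, and induce antiviral proteins. The mitochondrial genome encodes core subunits of the respiratory chain and ATP synthase, while nuclear genes encode the remaining subunits.

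Gene reads numbered 9472317 to 10466096 per library at 58 nm, 10039379 to 10469143 at 35 nm and 10039422 to 10678269 in untreated cells. Library 1 of the 58 nm group stood apart from its group. Its gene counts differed from those of the other 58 nm libraries by a chi-square of 6.36 to 7.74 per gene, against 2.28 to 2.38 among the other 58 nm libraries and 1.99 to 4.62 among the 35 nm libraries. Across genes, its expression relative to the 8-library mean had a Spearman's rho of -0.25 with gene length and 0.19 with GC content, where the other 58 nm libraries had 0.18 to 0.21 and -0.42 to -0.30. The 35 nm libraries had -0.22 to 0.033 with length and -0.064 to 0.52 with GC content. Results are therefore also given without 58 nm library 1 and, where it matters, with the trends on gene length and GC content removed. As a check of the cell type, CDH5 and PECAM1, which code for VE-cadherin and CD31, averaged 1.62 and 1.57 FPKM at 58 nm, 1.88 and 1.17 at 35 nm and 1.44 and 1.42 in untreated cells. The barrier claudin CLDN5 lay below the filter at 0.0955, 0.0927 and 0.117 FPKM in the same order, so 2 defining endothelial markers were low and a further one was near absent. In the endothelial identity list as a whole, 15 of 29 genes reached the filter. The summed level of that list was 189 to 203 FPKM at 58 nm, 186 to 202 at 35 nm and 194 to 203 in untreated cells. Of the microglia, neuron, astrocyte and epithelial marker lists, 0 of 9, 0 of 8, 1 of 8 and 1 of 8 genes reached the filter. Of the fibroblast markers 4 of 8 did and 0 were called, with a summed level of 293 to 306 FPKM at 58 nm, 298 to 317 at 35 nm and 259 to 282 in untreated cells. Of the pericyte and smooth muscle markers 5 of 10 did, and 2 rose, PDGFRB by 0.27 and NOTCH3 by 0.31 (limma adjusted p = 0.0143 and 0.012). The summed level of that list was 67.3 to 71.1 FPKM at 58 nm, 59.9 to 66.7 at 35 nm and 66.5 to 70.4 in untreated cells, and its part in the results was not tested.

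At 58 nm, NF-kB target genes were lower and mitochondrially encoded transcripts were higher than at 35 nm, and smaller falls ran through stress, biosynthesis and matrix genes. A gene counts as called, and as having risen or fallen, where its Benjamini-Hochberg adjusted p from limma was under 0.05, and every change is log2 of 58 nm over 35 nm on the scale log2(FPKM + 1). In all 933 of 12137 genes were called (7.69%), 248 higher at 58 nm (2.04%) and 685 lower (5.64%). Most changes were small: the median change was 0.30 among genes that rose and -0.30 among genes that fell, against 0.0028 over all tested genes, and 8 rises and 12 falls reached 1 on the log2 scale. Groups did not overlap in 16.3% of tested genes, with 58 nm above in 6.31% and below in 9.97%.

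The split between rises and falls depended on the scaling: 26.6% of called genes were higher at 58 nm with the FPKM as deposited, 40.6% after upper-quartile rescaling, 39% after quantile normalization and 42.6% with limma-voom on reads. Without 58 nm library 1 the calls numbered 1785 (14.7% of tested genes), 594 higher (4.89%) and 1191 lower (9.81%). Of the 933 genes, 911 were called in the same direction without it, and all 933 kept their sign. Leaving out any 1 of the other 7 libraries lowered the number of calls to between 348 and 670. List counts given below with a library left out are to be read against these totals over all tested genes. With both trends removed, 1055 genes were called (8.69%), 341 higher (2.81%) and 714 lower (5.88%), and 745 of the 933 remained, with 0 in the opposite direction. Without 58 nm library 1, the 58 nm and 35 nm libraries no longer overlapped in their correlations with gene length or with GC content. Particle size and these trends therefore cannot be told apart in the 1785 calls. With that library left out and both trends removed, 1349 genes were called, 411 higher and 938 lower. Of the 933 genes, 713 were among them in the same direction.

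**Figure D1:**
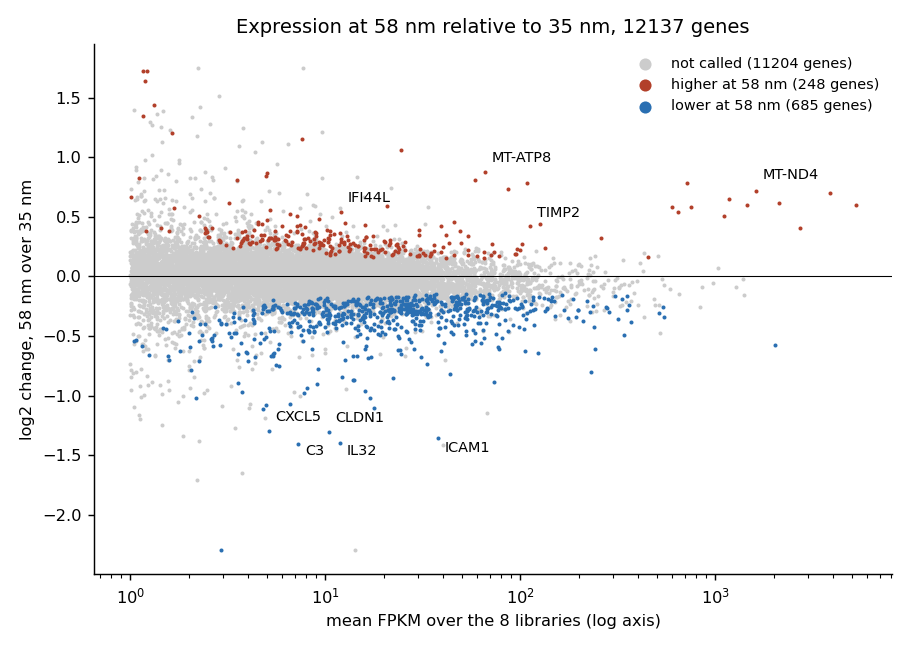
Change at 58 nm over 35 nm (log2, vertical axis) against mean FPKM over the 8 libraries (log axis) for each of the 12137 tested genes, with 248 called higher in red, 685 called lower in blue and the rest in grey. The falls of largest size among labelled genes are the inflammatory genes C3, IL32 and ICAM1 with the claudin CLDN1, and the 4 called genes of highest mean expression are mitochondrial and lie above 0.

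Secreted NF-kB targets were lower at 58 nm. Of 17 tested cytokine and chemokine genes, 7 fell (41.2%, against 5.64% of all tested genes) and 0 rose, with a list median of -0.84. Without 58 nm library 1, 16 fell and 0 rose (median -1.11). IL32 (ENSG00000008517, GRCh38 chromosome 16, 3065297 to 3082192), a cytokine that amplifies inflammatory signalling, had 7.96, 5.58, 5.31 and 5.64 FPKM at 58 nm, against 18.7, 15.8, 18.3 and 17.7 at 35 nm and 4.81, 5.07, 4.76 and 5.32 in untreated cells. All 4 libraries at 58 nm lay below all 4 at 35 nm, and library 1 was the highest of the 58 nm group. The change was -1.40 (SE 0.107, limma adjusted p = 0.000267), and -1.51 without that library. CXCL5 (ENSG00000163735, GRCh38 chromosome 4, 73995642 to 73998779), a chemokine that attracts neutrophils, had 3.41, 2.59, 1.46 and 2.89 FPKM at 58 nm and 9.7, 8.07, 5.75 and 7.36 at 35 nm, again without overlap (change -1.29, adjusted p = 0.00793). The growth factor of granulocytes and macrophages CSF2 averaged 3.94 ± 1.14 FPKM at 58 nm and 9.25 ± 1.48 at 35 nm (SD, n = 4 each; change -1.07, adjusted p = 0.00779). CXCL6, a further neutrophil chemokine, changed by -0.97, LIF, a cytokine of the interleukin-6 family, by -0.84, and the T-cell and monocyte chemokine CCL5 by -0.67 (adjusted p = 0.0148, 0.014 and 0.00787). The pyrogenic cytokine IL1B averaged 11.2 ± 3.92 FPKM at 58 nm and 24.2 ± 1.26 at 35 nm (SD, n = 4 each; change -1.10, adjusted p = 0.0209). It lost its call without 58 nm library 4 (0.0665) or 35 nm library 1, 2 or 3 (0.0671, 0.0541 and 0.0549).

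Several chemokine and cytokine genes were not called over all 8 libraries and were called without 58 nm library 1. CXCL8, the main human neutrophil chemokine, had 47.5, 21.8, 11.4 and 13.8 FPKM at 58 nm, against 73.3, 57.6, 40.8 and 56 at 35 nm and 9.69, 13.1, 14 and 13.8 in untreated cells. The first 58 nm library lay within the 35 nm range, and the other 3 lay below it. The change of -1.42 was not called over all 8 libraries (adjusted p = 0.0982), whereas -1.82 was called without that library (adjusted p = 0.0118). CCL2, which recruits monocytes, had 50.5, 26.7, 22.3 and 28.4 FPKM at 58 nm, 52, 50.5, 48.3 and 50.2 at 35 nm and 26.6, 32.6, 35.4 and 37.3 in untreated cells. Here library 1 matched the 35 nm level and the other 3 matched or fell under the untreated range (adjusted p = 0.106 with all libraries and 0.00026 without library 1). CXCL1, a chemokine of the same family as CXCL8, had 76, 36.8, 29 and 33.6 FPKM at 58 nm and 109, 90.2, 83.2 and 84.2 at 35 nm, which did not overlap (adjusted p = 0.06, and 0.000557 without library 1). IL6, the acute-phase cytokine, had 7.86, 3.17, 2.4 and 2.13 FPKM at 58 nm and 9.1, 6.6, 6.42 and 4.92 at 35 nm (adjusted p = 0.21, and 0.00784 without library 1). The granulocyte factor CSF3 averaged 0.881 FPKM at 58 nm and 2.24 at 35 nm, so it reached the filter only through the 35 nm group. CXCL2 and CSF3 changed by -0.78 and -0.87 (adjusted p = 0.112 and 0.106) and had adjusted p = 0.00169 and 0.00564 without library 1. Some were also called with that library kept: in the fit over all 12 libraries CXCL1, CXCL8 and CSF3 had adjusted p = 0.0194, 0.0382 and 0.0447, and with limma-voom CXCL2 and CSF3 had 0.0225 and 0.0478. With array weights, which count that library less, CXCL1, CXCL2, CXCL8, CCL2 and CSF3 had 0.0102, 0.0164, 0.0246, 0.0147 and 0.0221. As 20.7% of the IL6 exons overlap a gene on the other strand, reads of both cannot be told apart without strand information.

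Genes of the NF-kB machinery itself fell in 15 of 23 cases (65.2%, against 5.64% of all tested genes) and rose in 0, with a median of -0.42. Without 58 nm library 1, 18 fell (median -0.48). Leaving out 1 of the other 7 libraries left 11 to 15 of them called. NFKBIA, which codes for the inhibitor IkB-alpha (ENSG00000100906, GRCh38 chromosome 14, 35401511 to 35404749), had 41.8, 29.2, 27.8 and 27.4 FPKM at 58 nm, 56.8, 54.2, 55.6 and 55.3 at 35 nm and 22.3, 24.9, 25.6 and 28.9 in untreated cells. The 58 nm and 35 nm groups did not overlap, and library 1 lay above the rest of the 58 nm group (change -0.82, SE 0.12, adjusted p = 0.00684; -0.96 without library 1). The ubiquitin-editing inhibitor TNFAIP3 (A20) averaged 5.26 ± 1.12 FPKM at 58 nm and 10.8 ± 0.424 at 35 nm (SD, n = 4 each; change -0.93, adjusted p = 0.00175). Its binding partner TNIP1 changed by -0.68, the adaptor TRAF1 by -0.70 and the inhibitor of apoptosis BIRC3 by -0.67 (adjusted p = 0.00414, 0.00192 and 0.00954). TRAF1 averaged 0.967 FPKM at 58 nm and 2.2 at 35 nm, so it reached the filter only through the 35 nm group. Among the subunits, RELB changed by -0.96, NFKB2 by -0.65 and NFKB1 by -0.42 (adjusted p = 0.00373, 0.007 and 0.00258). The transactivating subunit RELA averaged 21.6 ± 0.418 FPKM at 58 nm and 24 ± 1.07 at 35 nm and was not called (SD, n = 4 each; change -0.14, 95% interval -0.24 to -0.045, adjusted p = 0.0786, and 0.0489 without 58 nm library 1). IRAK2, a kinase of the interleukin-1 receptor pathway, changed by -0.48 and SOD2, the mitochondrial superoxide dismutase that NF-kB induces, by -0.87 (adjusted p = 0.00417 and 0.00175).

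Of 12 leukocyte adhesion genes 3 fell (25%, against 5.64% of all tested genes) and 0 rose, with a list median of -0.047. The same counts held without 58 nm library 1. ICAM1 (ENSG00000090339, GRCh38 chromosome 19, 10270835 to 10286615), which binds leukocyte integrins, had 26.3, 22.9, 15.4 and 20.2 FPKM at 58 nm, against 55.7, 52.2, 58 and 53.5 at 35 nm and 18.8, 19.4, 19.4 and 22.1 in untreated cells. All 58 nm libraries lay below the 35 nm range, on either side of or within the untreated range (change -1.35, SE 0.137, adjusted p = 0.00176). On the opposite strand, 23.6% of its exon bases are shared with another gene. CD44, a hyaluronan receptor, averaged 60.3 ± 0.552 FPKM at 58 nm and 74.2 ± 0.779 at 35 nm (SD, n = 4 each; change -0.30, adjusted p = 0.00175). VCAM1, the ligand of the integrin VLA-4, averaged 0.72 FPKM at 58 nm and 1.58 at 35 nm (change -0.58, adjusted p = 0.0185). Its 58 nm mean lay under 1 FPKM, so it reached the filter only through the 35 nm group. The call was lost without 58 nm library 2 or 4 (0.0529 and 0.0561) or 35 nm library 1 or 2 (0.0666 and 0.0527).

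The complement list had 4 of 12 genes lower and 1 higher (41.7% called, against 7.69% of all tested genes). It had 4 lower and 2 higher without 58 nm library 1, and without 1 of the other 7 libraries 3 to 4 were called. C3 (ENSG00000125730, GRCh38 chromosome 19, 6677704 to 6730562), the central complement protein, had 4.76, 3.13, 3.06 and 3.35 FPKM at 58 nm, 11.1, 10.6, 11.4 and 10.8 at 35 nm and 2.24, 2.53, 2.47 and 2.44 in untreated cells. Every 58 nm library lay above the untreated range and below the 35 nm range, and library 1 was the highest of its group. The change was -1.40 (SE 0.103, adjusted p = 0.000252; -1.52 without library 1). C1S, a protease of the classical pathway, averaged 4.52 ± 0.699 FPKM at 58 nm and 7.12 ± 0.373 at 35 nm (SD, n = 4 each; change -0.56, adjusted p = 0.00628). PTX3, a secreted pattern recognition molecule that binds C1q, had 177, 170.1, 146 and 175 FPKM at 58 nm and 298, 286, 297 and 285 at 35 nm, without overlap (change -0.80, SE 0.0609, adjusted p = 0.000267).

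**Figure D2:**
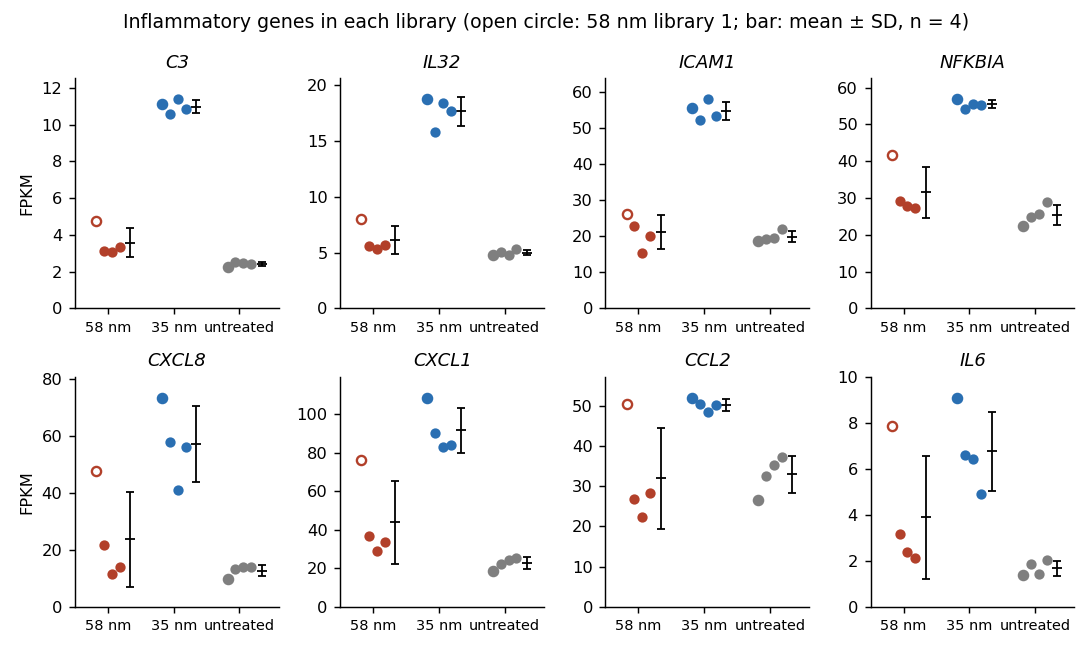
FPKM (vertical axis, from 0) of 8 inflammatory genes in each of the 4 libraries at 58 nm, at 35 nm and untreated, with the mean and SD beside each group and 58 nm library 1 as an open circle. In C3, IL32, ICAM1 and NFKBIA the 58 nm libraries all lie below the 35 nm libraries, while in CXCL8, CCL2 and IL6 the open circle lies inside or next to the 35 nm range.

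The promoters of some of these genes hold a sequence of the kind that NF-kB binds. Promoters were taken from RefSeq (build GRCh38.p14) as 250 bases before to 50 bases after a RefSeq start site, on the strand of the gene. That site can differ from the gene start in the deposited annotation. The letters GGAANTTCC, which read the same on both strands, were searched, and this motif was chosen with these promoters in view. It occurred in 339 of 35116 promoters (0.965%), in 10 of the 31 tested members of both NF-kB lists that matched a promoter, and in 5 of the 17 matched members that fell. A listed gene counted where any of its promoters held the motif, while 0.965% is a share per promoter. The promoters of ICAM1, CXCL5, NFKBIA and NFKB1 are shown because they belong to an adhesion molecule, a chemokine, an inhibitor and a subunit that all fell at 58 nm (ICAM1 is on the adhesion list and not in these counts). Capitals mark the match, and no capitals elsewhere says only that these letters are absent.
ICAM1 (chr19:10270870-10271169, plus strand): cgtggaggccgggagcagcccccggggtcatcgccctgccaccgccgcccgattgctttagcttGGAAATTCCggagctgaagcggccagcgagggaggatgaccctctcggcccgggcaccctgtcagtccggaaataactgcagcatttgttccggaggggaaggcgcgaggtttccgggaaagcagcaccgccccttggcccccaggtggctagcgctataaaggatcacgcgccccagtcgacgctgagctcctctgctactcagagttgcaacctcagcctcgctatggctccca
CXCL5 (chr4:73998628-73998927, minus strand): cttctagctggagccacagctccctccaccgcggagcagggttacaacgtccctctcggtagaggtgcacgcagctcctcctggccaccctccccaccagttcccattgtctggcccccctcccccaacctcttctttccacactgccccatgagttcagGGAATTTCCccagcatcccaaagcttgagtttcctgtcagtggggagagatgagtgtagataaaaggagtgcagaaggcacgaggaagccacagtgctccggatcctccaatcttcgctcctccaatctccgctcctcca
NFKBIA (chr14:35404700-35404999, minus strand): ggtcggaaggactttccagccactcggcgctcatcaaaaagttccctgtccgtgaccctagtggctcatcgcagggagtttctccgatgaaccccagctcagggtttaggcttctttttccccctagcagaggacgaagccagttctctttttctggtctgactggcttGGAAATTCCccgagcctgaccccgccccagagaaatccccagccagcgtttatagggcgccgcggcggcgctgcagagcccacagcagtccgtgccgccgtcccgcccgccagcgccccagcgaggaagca
NFKB1 (chr4:102501109-102501408, plus strand): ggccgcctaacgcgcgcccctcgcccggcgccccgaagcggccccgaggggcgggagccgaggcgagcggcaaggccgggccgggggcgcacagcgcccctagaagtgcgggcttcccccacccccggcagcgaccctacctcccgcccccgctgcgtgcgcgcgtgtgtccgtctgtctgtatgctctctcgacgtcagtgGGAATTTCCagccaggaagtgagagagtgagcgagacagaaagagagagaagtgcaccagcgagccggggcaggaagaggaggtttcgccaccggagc
The matches begin 186, 90, 81 and 48 bases before the RefSeq start site, in the order shown. For ICAM1 and CXCL5 the match lies inside the gene span given above. Promoters of CXCL1, CXCL2, CXCL3, CXCL6 and CXCL8 also held a match, and none was found in those of IL32, CSF2, TNFAIP3 or NFKB2.

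Mitochondrially encoded transcripts were higher at 58 nm. All genes of the mitochondrial chromosome together took 3.11, 2.70, 2.85 and 2.90% of gene reads at 58 nm, against 1.85, 1.93, 1.95 and 1.83% at 35 nm. No 58 nm library overlapped the 35 nm range, and the untreated libraries held 3.05 to 3.18%. The difference was 1.00 percentage point (2.89 ± 0.173% at 58 nm and 1.89 ± 0.0597% at 35 nm; SD, n = 4 each), with a two-sided exact permutation p of 0.0286, the smallest that 4 against 4 libraries can give. It was 0.927 percentage points without 58 nm library 1 and 0.933 over the 13 protein-coding genes alone.

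Of these 13 genes 12 rose and 0 fell, with a median of 0.60, and the counts were the same without 58 nm library 1, without any 1 of the other libraries, and with both trends removed. MT-ND4 (ENSG00000198886, mitochondrial positions 10760 to 12137), a subunit of complex I, had 2171, 1889, 1926 and 2094 FPKM at 58 nm, 1180, 1267, 1297 and 1173 at 35 nm and 2390, 2328, 2485 and 2133 in untreated cells. The 58 nm libraries all lay above the 35 nm libraries (change 0.72, SE 0.0585, adjusted p = 0.000274). MT-ND6, the complex I subunit encoded on the other strand of the circle, averaged 902 ± 55.4 FPKM at 58 nm and 524 ± 36.8 at 35 nm (SD, n = 4 each; change 0.78, adjusted p = 0.000267). Cytochrome b, MT-CYB, changed by 0.65, and the ATP synthase subunit MT-ATP6 by 0.62 (adjusted p = 0.000456 and 0.000332). MT-ATP8, of which 22.2% is shared with MT-ATP6 on the same strand, had 74.9, 87.1, 89.3 and 89.9 FPKM at 58 nm and 56, 49, 34.3 and 46.8 at 35 nm (change 0.88, adjusted p = 0.00974). The cytochrome oxidase subunits MT-CO1 and MT-CO2 changed by 0.60 and 0.70 (adjusted p = 0.000456 and 0.000456). Under quantile normalization the calls of MT-CO1, MT-CO2, MT-CO3 and MT-ND5 were lost (adjusted p = 1, 1, 0.533 and 0.12). MT-CO1, MT-CO2 and MT-CO3 are the 3 called genes of highest mean FPKM, and quantile normalization gives equal values to equal ranks by construction. MT-ND3 alone was not called, at 640.3, 484, 557 and 465 FPKM at 58 nm and 535, 449, 454 and 461 at 35 nm (change 0.17, 95% interval -0.058 to 0.39, adjusted p = 0.331), and had adjusted p = 0.022 under quantile normalization.

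**Figure D3:**
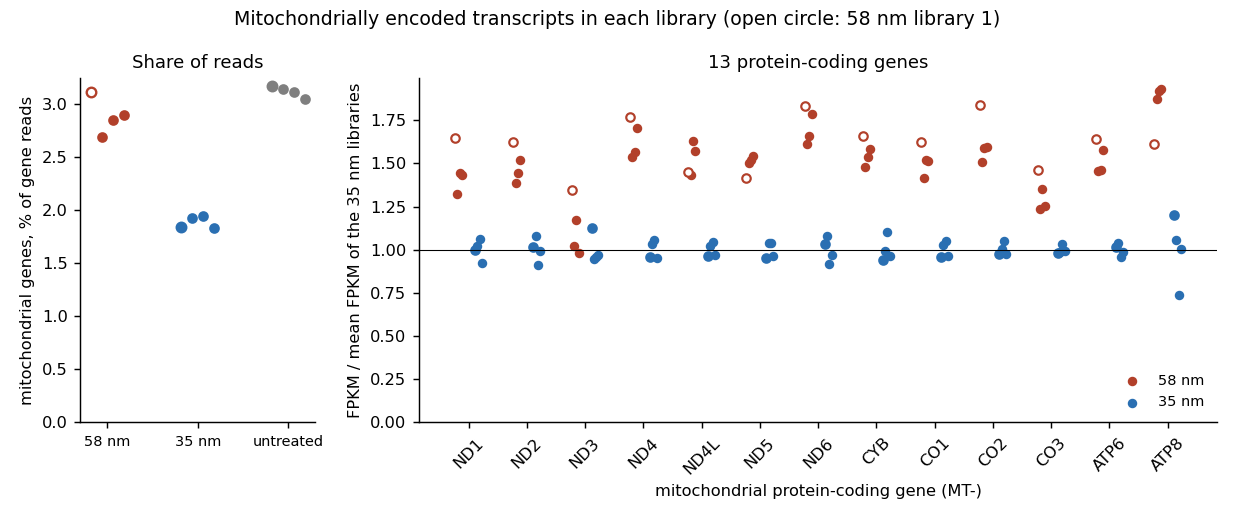
Left, share of gene reads from mitochondrial genes (percent, from 0) in each library at 58 nm, at 35 nm and untreated, which is 2.70 to 3.11% at 58 nm and 1.83 to 1.95% at 35 nm. Right, FPKM of the 13 mitochondrial protein-coding genes in each library at 58 nm and 35 nm divided by the mean of the 35 nm libraries, with 58 nm library 1 as open circles: the groups overlap in ND3 alone.

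Among other mitochondrial genes, the arginine and leucine transfer RNA genes MT-TR and MT-TL1 rose by 1.06 and 0.81, and the proline transfer RNA gene MT-TP by 0.73 (adjusted p = 0.0191, 0.0186 and 0.0134). These are short genes with 15 to 30, 40 to 68 and 59 to 90 reads per library at 58 nm. MT-TR lost its call without 58 nm library 3 or 4 (0.0611 and 0.0516) or 35 nm library 3 (0.0564), and MT-TL1 without 58 nm library 3 (0.0587) or 35 nm library 3 (0.0569). With both trends removed the 3 genes had adjusted p = 0.0673, 0.0507 and 0.122. The genes MTATP6P1 and AC141557.1, annotated on chromosomes 1 and 12, rose by 0.79 and 0.87 (adjusted p = 0.00175 and 0.0124). MTATP6P1 is a nuclear pseudogene copy of MT-ATP6, so its reads may belong to that gene. The largest rise under the rule for named genes, 1.15 in the small nucleolar RNA gene SNORD62B, rested on 7 to 11 reads per library at 58 nm and 2 to 6 at 35 nm (adjusted p = 0.0496). It was lost without 58 nm library 1, 2, 3 or 4 (0.0635, 0.118, 0.0871 and 0.136) or 35 nm library 1, 2 or 3 (0.0855, 0.107 and 0.0712).

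Of 74 nuclear genes of the respiratory chain 0 rose and 8 fell (10.8%, against 5.64% of all tested genes), with a median of -0.13. Without 58 nm library 1, 20 of the 74 fell, against 9.81% of all tested genes in that setting, and without 1 of the other 7 libraries 5 to 9 did. COX6A1, a nuclear subunit of cytochrome oxidase (ENSG00000111775, GRCh38 chromosome 12, 120438090 to 120440742), had 14.6, 11, 9.06 and 9.03 FPKM at 58 nm, 24.7, 24.6, 20.9 and 21.3 at 35 nm and 6.67, 8.44, 7.38 and 11 in untreated cells. The 58 nm and 35 nm groups did not overlap (change -1.02, SE 0.138, adjusted p = 0.00545). UQCRH, the hinge protein of complex III, changed by -0.49 (adjusted p = 0.0155, lost without 35 nm library 1 (0.0541)). Of 77 mitochondrial ribosomal protein genes 11 fell (14.3%) and 0 rose. The counts were 18 and 1 without 58 nm library 1, 6 to 12 were called without 1 of the other 7 libraries, and 13 fell and 2 rose with both trends removed. MRPL12 changed by -0.98 (adjusted p = 0.0334). That call was lost without 58 nm library 2, 3 or 4 (0.0853, 0.0651 and 0.0878) or 35 nm library 2 or 3 (0.0668 and 0.0621), and 68.2% of its exon bases overlap another gene.

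Interferon-stimulated genes moved in no shared direction between the sizes. Of 48 tested genes 5 rose and 4 fell (18.8% called, against 7.69% of all tested genes), with a median of 0.029. There were 6 rises and 9 falls without 58 nm library 1, and 4 to 8 were called without 1 of the other 7 libraries. IFI44L (ENSG00000137959, GRCh38 chromosome 1, 78619922 to 78646145), an antiviral effector, had 13.9, 14.5, 12.7 and 16.9 FPKM at 58 nm, 9.72, 10.6, 7.72 and 10.7 at 35 nm and 41, 45.2, 58.9 and 51.5 in untreated cells. Both particle groups lay far under the untreated range, and the 58 nm libraries lay above the 35 nm libraries (change 0.54, SE 0.108, adjusted p = 0.0183). Its call was lost without 58 nm library 2 (0.0536) or 35 nm library 1 (0.0554). XAF1, an interferon-induced promoter of apoptosis, averaged 10.2 ± 0.85 FPKM at 58 nm, 7.84 ± 0.339 at 35 nm and 25.8 ± 2.2 in untreated cells (SD, n = 4 each; change 0.34, adjusted p = 0.014), with 38.3% of its exon bases shared with a gene on the other strand. OAS2, a sensor of double-stranded RNA, changed by 0.28 (adjusted p = 0.0194) and lost its call without 58 nm library 2 or 4 (0.0521 and 0.0555) or 35 nm library 1 or 3 (0.059 and 0.0519).

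MX1, a GTPase that blocks viral replication, had 58.4, 53.5, 46.4 and 53.1 FPKM at 58 nm and 47, 50.3, 47.4 and 50.3 at 35 nm, overlapping (change 0.11, 95% interval -0.035 to 0.25, adjusted p = 0.321). IFIT1, which binds viral RNA, and the ubiquitin-like protein ISG15 had changes of -0.042 (95% interval -0.20 to 0.12) and -0.04 (95% interval -0.24 to 0.16) and were not called. Among the genes of this list that fell, CXCL10, a T-cell chemokine, averaged 1.1 ± 0.278 FPKM at 58 nm, 3.27 ± 0.702 at 35 nm and 0.975 ± 0.404 in untreated cells (SD, n = 4 each; change -1.02, adjusted p = 0.00397). IFIT2, which restrains viral translation, had 49.3, 55.2, 52.3 and 57 FPKM at 58 nm, 67.2, 74.2, 64.9 and 75 at 35 nm and 61.5, 65.9, 81.3 and 76 in untreated cells, so that the 58 nm libraries lay below both other groups (change -0.39, adjusted p = 0.00738). OASL, an OAS relative that enhances RIG-I signalling, changed by -0.32 (adjusted p = 0.00793).

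The promoter of IFI44L is shown because that gene had the largest called rise of the list. It holds 2 matches, in capitals, to a pattern of GAAA, any 2 bases and GAAA again, found in binding sites of interferon-activated factors. The pattern was searched on both strands, and 3.57% of the 35116 RefSeq promoters hold it, as do 27 of the 37 tested genes of the list that matched a promoter. A listed gene again counted where any of its promoters held the pattern, while 3.57% is a share per promoter. This pattern too was chosen with these promoters in view.
IFI44L (chr1:78620198-78620497, plus strand, GRCh38.p14): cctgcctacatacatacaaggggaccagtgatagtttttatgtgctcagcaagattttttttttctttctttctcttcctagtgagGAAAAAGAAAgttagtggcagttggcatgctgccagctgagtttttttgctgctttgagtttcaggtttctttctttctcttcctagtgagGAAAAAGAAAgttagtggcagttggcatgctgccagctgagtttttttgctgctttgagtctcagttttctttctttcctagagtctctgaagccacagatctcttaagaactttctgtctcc
The matches begin 164 and 73 bases before the RefSeq start site and lie inside the gene span given above. The promoters of CXCL10 and MX1 also hold the pattern.

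**Figure D4:**
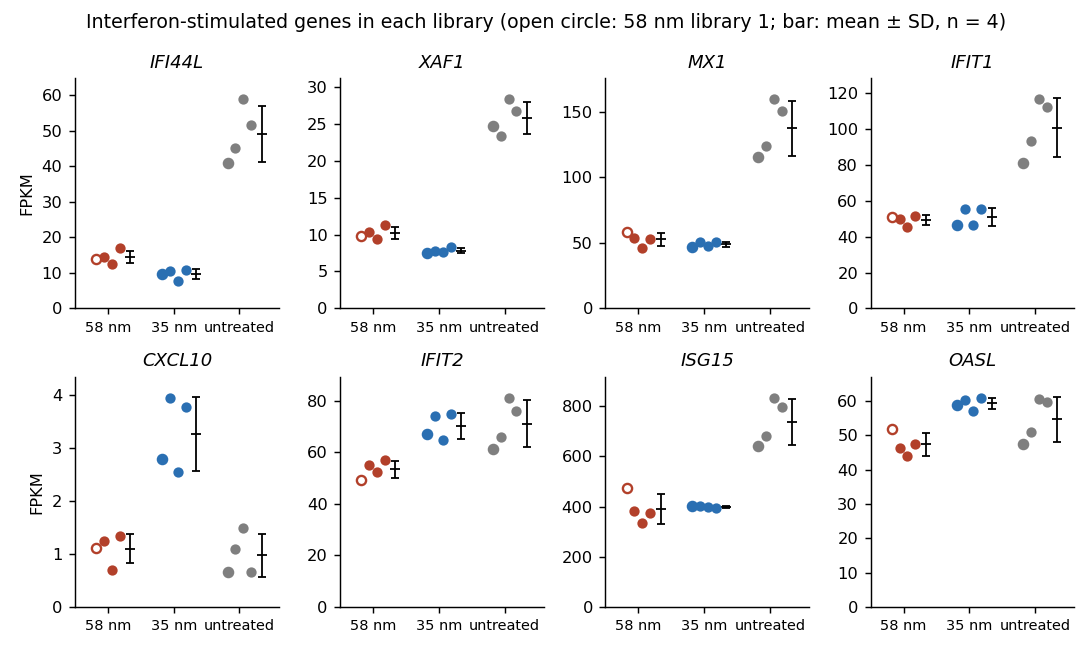
FPKM (vertical axis, from 0) of 8 interferon-stimulated genes in each library at 58 nm, at 35 nm and untreated, with mean and SD beside each group and 58 nm library 1 as an open circle. IFI44L and XAF1 are higher at 58 nm than at 35 nm, CXCL10, IFIT2 and OASL are lower, and MX1, IFIT1 and ISG15 overlap.

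Genes of MHC class I presentation fell in 7 of 21 cases (33.3%, against 5.64% of all tested genes) and rose in 0, with a median of -0.15. Without 58 nm library 1, 11 of the 21 fell, against 9.81% of all tested genes in that setting, and without 1 of the other 7 libraries 2 to 7 did. The loading chaperone CALR averaged 277 ± 7.49 FPKM at 58 nm and 355 ± 20.4 at 35 nm (SD, n = 4 each; change -0.36, adjusted p = 0.00397). HLA class I genes are near-identical in sequence, so their reads may be shared. HLA-B changed by -0.30 (adjusted p = 0.0233), and lost its call without 58 nm library 2, 3 or 4 (0.068, 0.0758 and 0.0705) or 35 nm library 1 or 3 (0.0713 and 0.0675). PSMB10, a subunit of the immunoproteasome, changed by -0.42 (adjusted p = 0.0238), a call lost without 58 nm library 3 (0.0619) or 35 nm library 1, 2 or 3 (0.059, 0.0592 and 0.0691). Another gene on the same strand shares 34.8% of the PSMB10 exon bases. B2M, the shared light chain, averaged 314 ± 13.2 FPKM at 58 nm and 316 ± 2.52 at 35 nm (SD, n = 4 each; change -0.014, 95% interval -0.10 to 0.078, adjusted p = 0.864).

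Biosynthesis and stress lists held falls with hardly any rise. Over all tested genes 5.64% fell and 2.04% rose. Targets of ATF4, the factor of the integrated stress response, fell in 14 of 28 cases (median -0.24; 19 fell without 58 nm library 1, and 5 to 10 without 1 of the other 7 libraries). STC2, a secreted stress glycoprotein, had 33.7, 32, 29.3 and 30.8 FPKM at 58 nm, 48.5, 42.2, 43.5 and 44 at 35 nm and 33.3, 34.8, 38.6 and 39.9 in untreated cells. The 58 nm libraries lay below the 35 nm range and reached into the untreated range (change -0.49, SE 0.057, adjusted p = 0.00192). The translation repressor EIF4EBP1 changed by -0.46, and the amino acid transporter SLC7A5 by -0.45 (adjusted p = 0.00662 and 0.00424). CHAC1, which degrades glutathione, changed by -0.49 (adjusted p = 0.0328), a call lost without 58 nm library 2, 3 or 4 (0.0834, 0.0944 and 0.0952) or 35 nm library 1, 3 or 4 (0.092, 0.0909 and 0.0593). DDIT3, the stress factor CHOP, was not called at 7.76, 5.66, 4.9 and 5.77 FPKM at 58 nm and 5.25, 5.3, 6.96 and 5.07 at 35 nm (adjusted p = 0.752). Exons on the other strand overlap 31.6% of the DDIT3 exon bases. Cytosolic heat shock genes fell in 9 of 26 cases and rose in 0 (median -0.15; 3 to 5 fell without 1 of the 7 libraries other than 58 nm library 1). The HSP90 cochaperones FKBP4 and AHSA1 changed by -0.45 and -0.40 (adjusted p = 0.00547 and 0.00737), and the mitochondrial chaperonin HSPE1 by -0.47 (adjusted p = 0.0157, lost without 58 nm library 4 (0.0502) or 35 nm library 1 (0.0546)). Endoplasmic reticulum chaperones fell in 6 of 29 cases and rose in 1 (4 to 5 called without 1 of those 7 libraries, and 5 lower and 0 higher with both trends removed), with SDF2L1 at -0.50, HYOU1 at -0.39 and HSPA5 at -0.26 (adjusted p = 0.00397, 0.00151 and 0.00662). HSPA5 lost its call under quantile normalization (0.0887).

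In ribosome assembly, 13 of 42 nucleolar genes fell (31%, against 5.64% of all tested genes) and 0 rose, with a median of -0.12. Without 1 of the 7 libraries other than 58 nm library 1, 7 to 12 were called. RRS1, an assembly factor of the large subunit, had 22.2, 21.7, 21.1 and 21.9 FPKM at 58 nm, 32.1, 32.1, 31.9 and 31.1 at 35 nm and 18.1, 17.2, 19.6 and 18.9 in untreated cells, so that no groups overlapped (change -0.53, SE 0.0378, adjusted p = 0.000252). Cytosolic ribosomal protein genes had medians of -0.14 over all libraries and -0.19 without 58 nm library 1. They fell in 7 of 78 cases (8.97%, against 5.64% of all tested genes) and in 33 of 78 without that library (against 9.81%). Leaving out 1 of the other 7 libraries left 1 to 7 called. RPL26, of the large subunit, changed by -0.91 (adjusted p = 0.00374). RPL36 and RPL8 changed by -0.64 and -0.49 (adjusted p = 0.0254 and 0.0216), and RPL36 lost its call without 58 nm library 2, 3 or 4 (0.0583, 0.0758 and 0.0514) or 35 nm library 1 or 3 (0.0599 and 0.0727). RPL8 lost it without 58 nm library 2 or 3 (0.0558 and 0.067) or 35 nm library 1 or 3 (0.0654 and 0.0676). Processed pseudogenes of ribosomal proteins are numerous and may take some of these reads. Of 20 aminoacyl-tRNA synthetase genes 8 fell (40%), and of 32 proteasome genes 7 fell (21.9%), with 0 rises in either list. Without 1 of those 7 libraries, 3 to 6 and 3 to 4 were called. Glycolysis and hypoxia genes fell in 12 of 39 cases and rose in 1, with a median of -0.11. That is 33.3% called, against 7.69% of all tested genes, and 5 to 10 were called without 1 of the 7. ENO1, the enolase, averaged 330.2 ± 18.3 FPKM at 58 nm and 389.6 ± 19.3 at 35 nm (SD, n = 4 each; change -0.24, adjusted p = 0.0264). It was not called under quantile normalization (0.167), and its call was lost without 58 nm library 2, 3 or 4 (0.0761, 0.0826 and 0.0803) or 35 nm library 1 or 3 (0.0688 and 0.0624). ODC1, the rate-limiting enzyme of polyamine synthesis, changed by -0.54 (adjusted p = 0.00139).

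Junction genes of the endothelium were called at a share near that of all tested genes. Of 22 junction genes 0 rose and 2 fell (9.09% called, against 7.69% of all tested genes), with a median of 0.0007. There were 1 rise and 3 falls without 58 nm library 1. Of 15 tested endothelial identity genes 0 were called, which so few genes cannot set apart from that share. With both trends removed 1 of them rose and 1 fell. CLDN1 (ENSG00000163347, GRCh38 chromosome 3, 190305701 to 190322475), a claudin of tight junctions, had 7.82, 5.55, 4.45 and 4.78 FPKM at 58 nm, 16.7, 15.9, 13 and 15.1 at 35 nm and 3.2, 4.29, 4.43 and 4.37 in untreated cells, with all 58 nm libraries below the 35 nm range (change -1.30, SE 0.145, adjusted p = 0.00233). The tight junction scaffold TJP1 had 21.9, 26.3, 28.1 and 26.3 FPKM at 58 nm and 21, 23.8, 23.2 and 22.2 at 35 nm, overlapping through library 1 (change 0.17, 95% interval 0.012 to 0.34, adjusted p = 0.17, and 0.24 at 0.0183 without library 1). CDH5 and PECAM1 had changes of -0.11 (95% interval -0.43 to 0.20) and 0.24 (95% interval -0.027 to 0.51) and were not called. Of 28 barrier transporter and receptor genes 8 fell (28.6%) and 0 rose, 6 of them genes of amino acid or folate carriers. Without 58 nm library 1, 9 fell, and without 1 of the other 7 libraries 2 to 4 were called. With both trends removed 1 rose. TFRC, the transferrin receptor, had 30.1, 30.9, 28.7 and 28.1 FPKM at 58 nm, 36.5, 38.8, 36.5 and 38.7 at 35 nm and 22.3, 23.5, 22.8 and 22.8 in untreated cells, without overlap of any groups (change -0.34, SE 0.0457, adjusted p = 0.00373). ACO1, the iron regulatory protein that stabilises TFRC mRNA, changed by -0.33, and the ferric reductase CYBRD1 by 0.34 (adjusted p = 0.00985 and 0.00337). The efflux pump ABCB1 and the glucose carrier SLC2A1 had changes of -0.07 (95% interval -0.24 to 0.10) and -0.016 (95% interval -0.18 to 0.14) and were not called. Of 35 caveolar and endocytic genes 1 fell and 0 rose (2.86%). There were 3 falls and 2 rises without 58 nm library 1, and without 1 of the other 7 libraries 0 to 2 were called. Of 49 lysosomal genes 2 rose and 4 fell (12.2% called), against 3 and 8 without 58 nm library 1, and 1 to 3 were called without 1 of the other 7.

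Among matrix protease and inhibitor genes 3 of 22 rose and 2 fell (22.7% called, against 7.69% of all tested genes). There were 5 rises and 3 falls without 58 nm library 1, and 3 to 5 were called without 1 of the other 7. The matrix protease gene MMP1 fell by 0.67 (limma adjusted p = 0.0469), at 0.99 FPKM on average at 58 nm and 2.14 at 35 nm. It reached the filter only through the 35 nm group, and its 58 nm libraries held 8 to 28 reads. The matrix glycoprotein TNC averaged 13.1 ± 0.892 FPKM at 58 nm and 21.4 ± 0.629 at 35 nm (SD, n = 4 each; change -0.68, adjusted p = 0.000267). TIMP2 (ENSG00000035862, GRCh38 chromosome 17, 78852977 to 78925387), a tissue inhibitor of metalloproteinases, had 134, 127, 126 and 127 FPKM at 58 nm, 96.3, 96.3, 95.8 and 95.5 at 35 nm and 134, 136, 130.5 and 125 in untreated cells. At 58 nm it lay above the 35 nm libraries (change 0.42, SE 0.0368, adjusted p = 0.000398), and its relative TIMP4 rose by 0.62 (adjusted p = 0.00974). Targets of YAP and SRF fell in 11 of 36 cases (30.6%) and rose in 0, with a median of -0.14. In this list 16 fell and 2 rose without 58 nm library 1, where 9.81% of all tested genes fell. With both trends removed 11 fell and 1 rose. The kinase NUAK2 changed by -0.55 and CYR61, a matricellular protein, by -0.27 (adjusted p = 0.00233 and 0.0136, the second 0.131 under quantile normalization). FJX1 and the actin-binding protein TAGLN changed by -0.38 and -0.37 (adjusted p = 0.0149 and 0.0159), and lost the call, FJX1 without 35 nm library 1 (0.0509) and TAGLN without 58 nm library 3 (0.0539). CTGF, a relative of CYR61, had 222, 234, 222 and 222 FPKM at 58 nm and 242, 246, 248 and 242 at 35 nm, which did not overlap, and was not called (change -0.12, 95% interval -0.20 to -0.035, adjusted p = 0.0849). Collagen and basement membrane genes fell in 9 of 37 cases (24.3%, against 5.64% of all tested genes) and rose in 0. There were 12 falls and 3 rises without 58 nm library 1, without 1 of the other 7 libraries 5 to 7 were called, and with both trends removed 10 fell and 1 rose. COL4A1 changed by -0.27 (adjusted p = 0.0133). VEGFC, a growth factor of lymphatic vessels, and its coreceptor NRP2 changed by -0.41 and -0.47 (adjusted p = 0.000456 and 0.00324). The BMP antagonist GREM1 changed by -0.44 (adjusted p = 0.00146), and PPARG, a nuclear receptor of lipid metabolism, rose by 0.56 (adjusted p = 0.004).

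Some mitotic genes were slightly higher at 58 nm. In the G2/M list 7 of 49 rose and 0 fell (14.3%, against 2.04% of all genes higher), with a median of 0.080. Without 58 nm library 1, where 4.89% of all tested genes rose, 12 of the list rose and 2 fell. Leaving out 1 of the other 7 libraries left 0 to 3 of them called. NUF2, of the kinetochore, averaged 27.2 ± 1.24 FPKM at 58 nm and 22.6 ± 1.37 at 35 nm (SD, n = 4 each; change 0.26, adjusted p = 0.0213), lost without 58 nm library 2 or 4 (0.0639 and 0.0664) or 35 nm library 1 or 3 (0.0697 and 0.0583). MKI67, the proliferation marker, had 42, 48.1, 49.9 and 49.6 FPKM at 58 nm and 40.2, 42.6, 41.8 and 44.3 at 35 nm. Library 1 at 58 nm lay within the 35 nm range and the other 3 above it (change 0.16, adjusted p = 0.128, and 0.22 at 0.0127 without library 1). HIST1H4I was the 1 of 22 tested replication-dependent histone genes that rose, by 0.52 (adjusted p = 0.00555), and 3 rose without 58 nm library 1. Among p53 targets 8 of 31 fell (25.8%, against 5.64% of all tested genes) and 0 rose. The falls were 11 and the rises 1 without 58 nm library 1, and 4 to 8 were called without 1 of the other 7. TP53I3 and PHLDA3 changed by -0.48 and -0.39 (adjusted p = 0.0136 and 0.0133). The cell cycle inhibitor CDKN1A changed by -0.32 (adjusted p = 0.0253), lost without 58 nm library 2, 3 or 4 (0.0727, 0.0758 and 0.0748) or 35 nm library 1 or 3 (0.0721 and 0.0675). Of 27 tested NRF2 targets 4 fell (14.8%, against 5.64% of all tested genes) and 0 rose, with a median of -0.13. Without 58 nm library 1, 9 fell, against 9.81% of all tested genes. In this list 2 to 5 were called without 1 of the other 7 libraries, and 6 fell and 1 rose with both trends removed. The NRF2 targets HMOX1 and NQO1 had changes of -0.22 (95% interval -0.39 to -0.051) and -0.023 (95% interval -0.14 to 0.10) and were not called, HMOX1 reaching 0.0356 without 58 nm library 1. HMGCS1, an enzyme of cholesterol synthesis, was not called either (change 0.063, 95% interval -0.024 to 0.15).

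**Figure D5:**
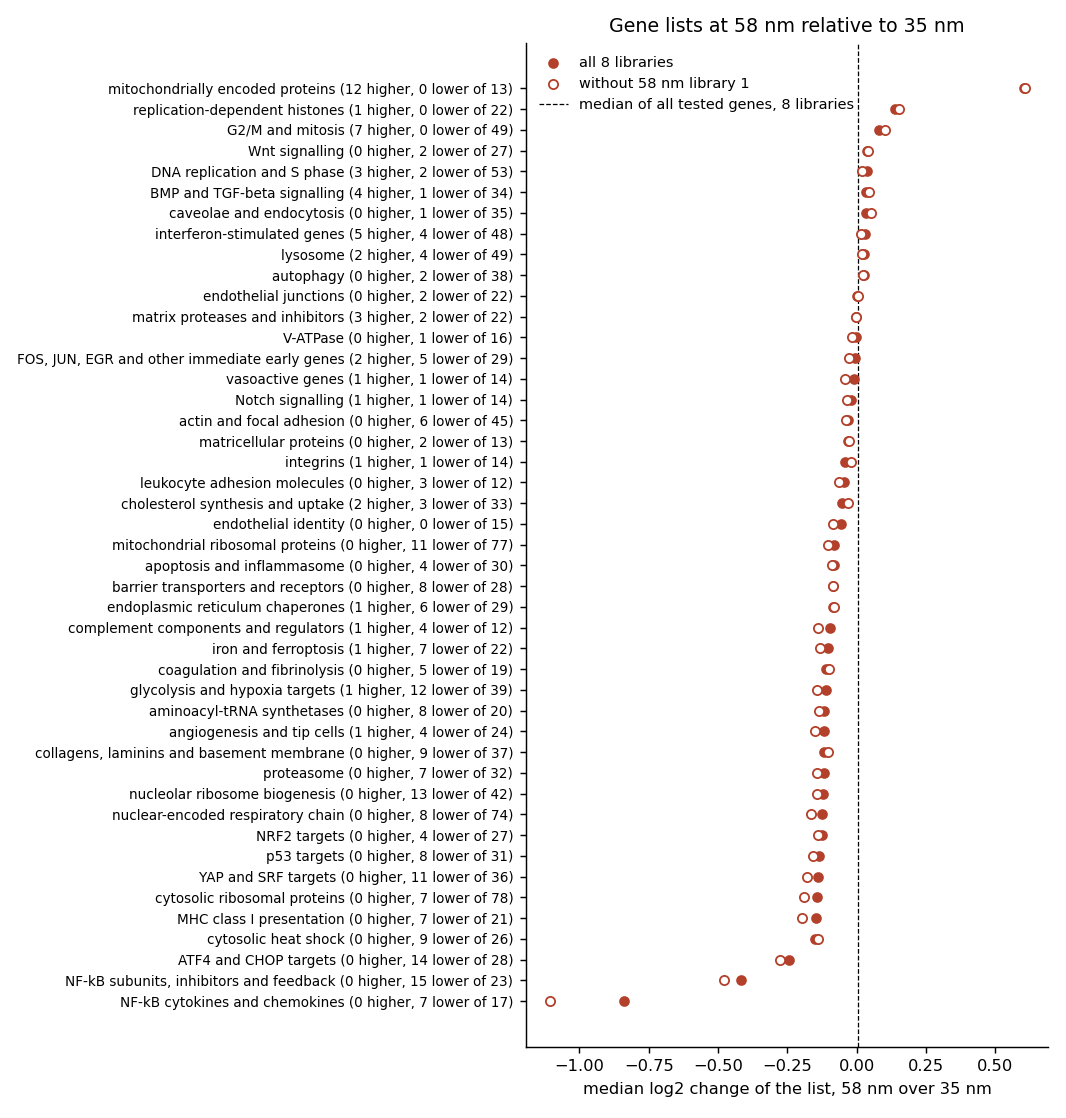
Median log2 change at 58 nm over 35 nm of each gene list with at least 10 tested members, over all 8 libraries (filled) and without 58 nm library 1 (open), with the counts of called members beside each name. The mitochondrially encoded genes lie farthest to the right (0.60), and the list medians farthest to the left are those of the NF-kB lists (-0.84 and -0.42), which move farther from 0 without that library.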

How the data were processed

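Gene expression was measured by RNA sequencing in 12 hCMEC/D3 libraries. The authors deposited 1 table of FPKM per gene and library. Its gene IDs and positions equal those of GENCODE 29 on GRCh38, whereas the submitters' processing notes name Bowtie 0.12.2 and hg19. The counting tool and its use of strand were not given in the sources used here. FPKM multiplied by gene length and by a library size gave whole reads, within 0.01 reads, for 100% of values. That library size was not given and was fitted to each library so that the values became whole. These recovered reads gave depth, mitochondrial shares and the limma-voom alternative.

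Genes averaging 1 FPKM or more over these 8 libraries were tested with limma 3.58.1 in R 4.3.3 (trended, robust variance) on log2(FPKM + 1), with Benjamini-Hochberg adjustment over 12137 genes. The mitochondrial share was tested by exact permutation (Python 3.11.15, numpy 2.4.6). The procedure was checked on simulated counts with a fixed dispersion. They held no trend on gene length or GC content and no deviating library, so the check does not cover these features of the data. Alternatives were other scalings, filters and pseudocounts, the length and GC trends removed, array weights and each library left out. Named genes are, among called genes whose groups did not overlap, the 10 that rose most and the 10 that fell most at a mean of 5 FPKM or more, the 3 most changed called members of each of the 10 lists farthest from the median of all genes, and a panel. Others were named after their values were seen, and 2 genes that the rule names are not reported here. Members, lists and panel were chosen with earlier results of these data known.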

Additional observations from a re-analysis of the deposited data

Results flagged for a closer look

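In 234 groups of 4 libraries, 2 for each of the 117 genes examined, 19 held 1 library far from the rest, meaning that its gap to the nearest other library over the range of the group exceeded Dixon's 95% critical value. Chance gives about 1 in 20 such groups, and 9 of the 19 were 58 nm library 1. That library was highest in its group for C3 (gap ratio 0.83), IL32 (0.873), NFKBIA (0.872), CXCL1 (0.834), RELA (0.86), SOD2 (0.858), CHAC1 (0.85), ENO1 (0.924) and TIMP2 (0.831). The first 6 of these belong to inflammatory signalling or its targets, and in each of them library 1 lay on the side of the 35 nm libraries. It was also the lowest of its group in the correlation of expression with gene length (0.919). With the length and GC trends removed from all 8 libraries, 4 of the chemokine and cytokine genes that were not called over all 8 had adjusted p = 0.0544 (CXCL1), 0.0717 (CXCL8), 0.102 (CCL2) and 0.217 (IL6).

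The other 10 were spread over libraries. At 58 nm they were library 2 for CTGF (0.961, highest) and library 3 for VCAM1 (0.868, highest) and NUF2 (0.898, lowest). At 35 nm they were library 1 for FJX1 (0.902), COL4A1 (0.887), LIF (0.854) and MT-ND3 (0.859), each the highest, library 2 for NUAK2 (0.839, lowest), library 3 for DDIT3 (0.88, highest) and library 4 for SDF2L1 (0.895, lowest).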

How the results depend on the processing

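No called gene was called in the opposite direction under any alternative, and no named gene reversed. The number of calls depended on the setting. Without a filter on low values 28013 genes were tested and 312 called (78 higher, 234 lower), and 50 of 174 genes examined lost a call. Array weights gave 1566 calls (489 higher, 1077 lower). The fit over all 12 libraries gave 438 higher calls and limma-voom gave 548 higher. With both trends removed and 58 nm library 1 left out, an alternative chosen after seeing the data, 1349 genes were called (411 higher, 938 lower). Leaving out 1 library gave 348 to 1785 calls, 87 to 594 higher and 260 to 1191 lower, the upper bounds all without 58 nm library 1. Pseudocount, filter of 5 FPKM, upper-quartile, quantile and length corrections kept the number of calls within 1.5 times. The mitochondrial share differed by 0.927 to 1.07 percentage points over the libraries left out. A replicate block gave 1036 calls, of which 773 were among the 933, and 1091 with the length trend also removed; CXCL1, IL6 and CSF3 were called under the block (0.0348, 0.0319 and 0.0317). The numbers did not pair the libraries: deviations of same-numbered libraries correlated at 0.16, 0.037, 0.00042 and 0.077. At these depths 3 reads of a gene of 1 kb equal 0.274 to 0.313 FPKM, so genes near the filter rest on few reads, and intervals cover counting error and library spread only.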

Other observations

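In the list of BMP and TGF-beta signalling, 4 of 34 genes rose at 58 nm and 1 fell, with a median of 0.035. That is 14.7% called, against 7.69% of all tested genes. With both trends removed 9 rose and 2 fell, and without 1 of the libraries other than 58 nm library 1 only 1 to 4 were called. ID2, an inhibitor of differentiation that BMP signalling induces, averaged 2.8 ± 0.0886 FPKM at 58 nm and 1.7 ± 0.384 at 35 nm (SD, n = 4 each; change 0.51, limma adjusted p = 0.0198), and lost its call without 58 nm library 2, 3 or 4 (0.0591, 0.058 and 0.0574). SMAD9, a signal transducer of BMP receptors, changed by 0.37 (adjusted p = 0.0146, lost without 58 nm library 3 (0.0519)). The BMP antagonist GREM1 is the member that fell.

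Other single genes moved within lists that held both directions. JUNB, an AP-1 subunit, averaged 19 ± 2.43 FPKM at 58 nm and 29.6 ± 2.1 at 35 nm (SD, n = 4 each; change -0.62, adjusted p = 0.00476), in a list of 29 immediate early genes of which 2 rose and 5 fell. Of that list 24.1% were called, against 7.69% of all tested genes. In it 3 fell with both trends removed, and 1 to 4 were called without 1 of the libraries other than 58 nm library 1. ITGB4, a laminin-binding integrin subunit, changed by 0.47 and the lysosomal protease CTSS by -0.54 (adjusted p = 0.00373 and 0.00997). Of 16 genes of the V-ATPase, the proton pump of lysosomes, 0 rose and 1 fell (6.25%). Of 38 autophagy genes 0 rose and 2 fell (5.26%), and both shares are near the 5.64% of all tested genes that fell. Without 58 nm library 1 these lists had 0 and 2 higher and 2 and 4 lower, and without 1 of the other 7 libraries 0 were called in either.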
